A study of Mus musculus with 2 samples.

Results

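Expression of 10 genes of lipid-associated macrophages was followed across the nucleus classes of mouse epididymal white adipose tissue (eWAT). The genes were Trem2, Gpnmb, Cd9, Spp1, Lpl, Lipa, Cd36, Fabp4, Fabp5 and Itgax, chosen by symbol among the 32285 genes of the count tables, and all 10 had counts in both libraries. Male C57BL/6 N mice that were 8 weeks old were first kept on high-fat chow (HF) during 6 weeks. They were then injected intraperitoneally 3 times a week for a further 8 weeks, on the same diet, with phosphate-buffered saline (HF-PBS) or with homoharringtonine (HF-HHT), a plant alkaloid that blocks protein synthesis and is used against leukemia. Both groups were therefore diet-fed males, and no lean group was part of these libraries. The eWAT of 3 mice was pooled for each group before nuclei were sorted and counted by droplet single nucleus RNA sequencing (snRNA-seq). With 1 library per group there is no replicate check and no test, the ranges given are exact 95% intervals that cover counting error only, and the differences are differences between these libraries.

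Lipid-associated macrophages gather around dying or lipid-filled adipocytes in obese fat, take up lipid and degrade it in lysosomes. The cell-surface receptor TREM2, which binds lipids and lipoproteins and signals through the adaptor encoded by Tyrobp, is required for this program in mice. Several of its genes are not private to macrophages: lipoprotein lipase is made by adipocytes, and the fatty acid translocase CD36 and the fatty acid-binding protein FABP4 are abundant in adipocytes and in the capillary endothelium of fat.

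The sequence before the start site is shown for Gpnmb and Itgax, the genes with the largest differences in macrophages, and for Trem2 and Spp1. The windows of Trem2 and Spp1 hold a match to a pattern used here for transcription factors of macrophages. Each is the 250 bases before the RefSeq start on GRCm38.p6, read 5′ to 3′ on the gene's strand, which is the plus strand for all of them. Motif matches are in capitals.
Gpnmb, chr6:49036268-49036517: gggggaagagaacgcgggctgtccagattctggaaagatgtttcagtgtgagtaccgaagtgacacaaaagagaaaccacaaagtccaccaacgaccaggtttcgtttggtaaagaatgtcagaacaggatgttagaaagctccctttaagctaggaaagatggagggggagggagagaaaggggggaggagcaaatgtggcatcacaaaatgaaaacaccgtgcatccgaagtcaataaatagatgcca
Itgax, chr7:128129300-128129549: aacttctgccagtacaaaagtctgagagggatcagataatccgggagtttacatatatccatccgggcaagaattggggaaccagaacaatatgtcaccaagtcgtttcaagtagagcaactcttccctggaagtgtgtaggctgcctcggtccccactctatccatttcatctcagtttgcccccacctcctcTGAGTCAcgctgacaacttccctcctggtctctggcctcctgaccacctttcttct
Trem2, chr17:48346151-48346400: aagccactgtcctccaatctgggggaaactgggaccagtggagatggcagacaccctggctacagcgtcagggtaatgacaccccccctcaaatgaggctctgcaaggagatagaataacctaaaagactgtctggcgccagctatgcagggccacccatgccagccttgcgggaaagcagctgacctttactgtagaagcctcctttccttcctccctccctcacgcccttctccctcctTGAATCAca
Spp1, chr5:104434861-104435110: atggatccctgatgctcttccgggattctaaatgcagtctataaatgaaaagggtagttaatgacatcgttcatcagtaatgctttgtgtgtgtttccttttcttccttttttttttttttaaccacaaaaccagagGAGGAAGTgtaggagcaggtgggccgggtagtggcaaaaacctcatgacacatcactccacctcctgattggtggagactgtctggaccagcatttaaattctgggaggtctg
The promoter windows used here matched 7 of the 10 genes, all but Lpl, Fabp4 and Fabp5. A match to TGANTCA, a pattern used here for AP-1 that allows any base at N, began 56 bases before the start of Itgax (TGAGTCA). Another began 9 bases before that of Trem2 (TGAATCA), and 6.75% of all 32851 promoter windows hold a match on either strand. The PU.1 site GAGGAAGT lay 113 bases before the start of Spp1 and is in 2.44% of the windows. The E-box CACGTG, the core recognised by MITF, TFEB and TFE3 and present in 6.02% of windows, was not found in the windows of the 7 genes. The same held for the DR1 element of PPAR and RXR, present in 0.0335% of windows. These matches describe letters in a window, and no binding was measured.

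After filtering, 6666 HF-PBS and 6445 HF-HHT nuclei remained, with medians of 4308.5 and 3964 unique molecular identifiers (UMIs), and 13 cell barcodes occurred in both libraries. Macrophage nuclei numbered 3592 and 2220, adipocytes 150 and 844, adipocyte precursor cells (APCs) 750 and 673, and blood endothelium 51 and 204. Macrophages carried all 10 of their fixed markers in both libraries, with a summed level of 5631 and 5419 CPM (UMIs of a gene per 1000000 UMIs of the class). All 10 adipocyte markers were likewise detected in adipocytes, at 26608 and 33458 CPM. Fewer cells of a type and less RNA per cell cannot be told apart over a whole library, so levels are given per class. Nuclei of duct-like epithelium (688), multiciliated epithelium (118) and erythroid cells (119) came from the HF-HHT library alone. Free RNA, the UMIs of barcodes too shallow to be nuclei, differed strongly between the libraries, and it held 1447 CPM of Gpnmb in the HF-PBS library against 179 CPM in the other, and 652 CPM of Fabp4 against 2016 CPM. From markers of other classes its share was put at no more than 6.57% of the UMIs of HF-PBS macrophages and 6.02% of those of HF-HHT macrophages, 4.80% and 3.92% in adipocytes, and 14.3% and 11.5% in T cells. Levels are compared within a gene only, because the counts are not corrected for gene length.

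**Figure D1:**
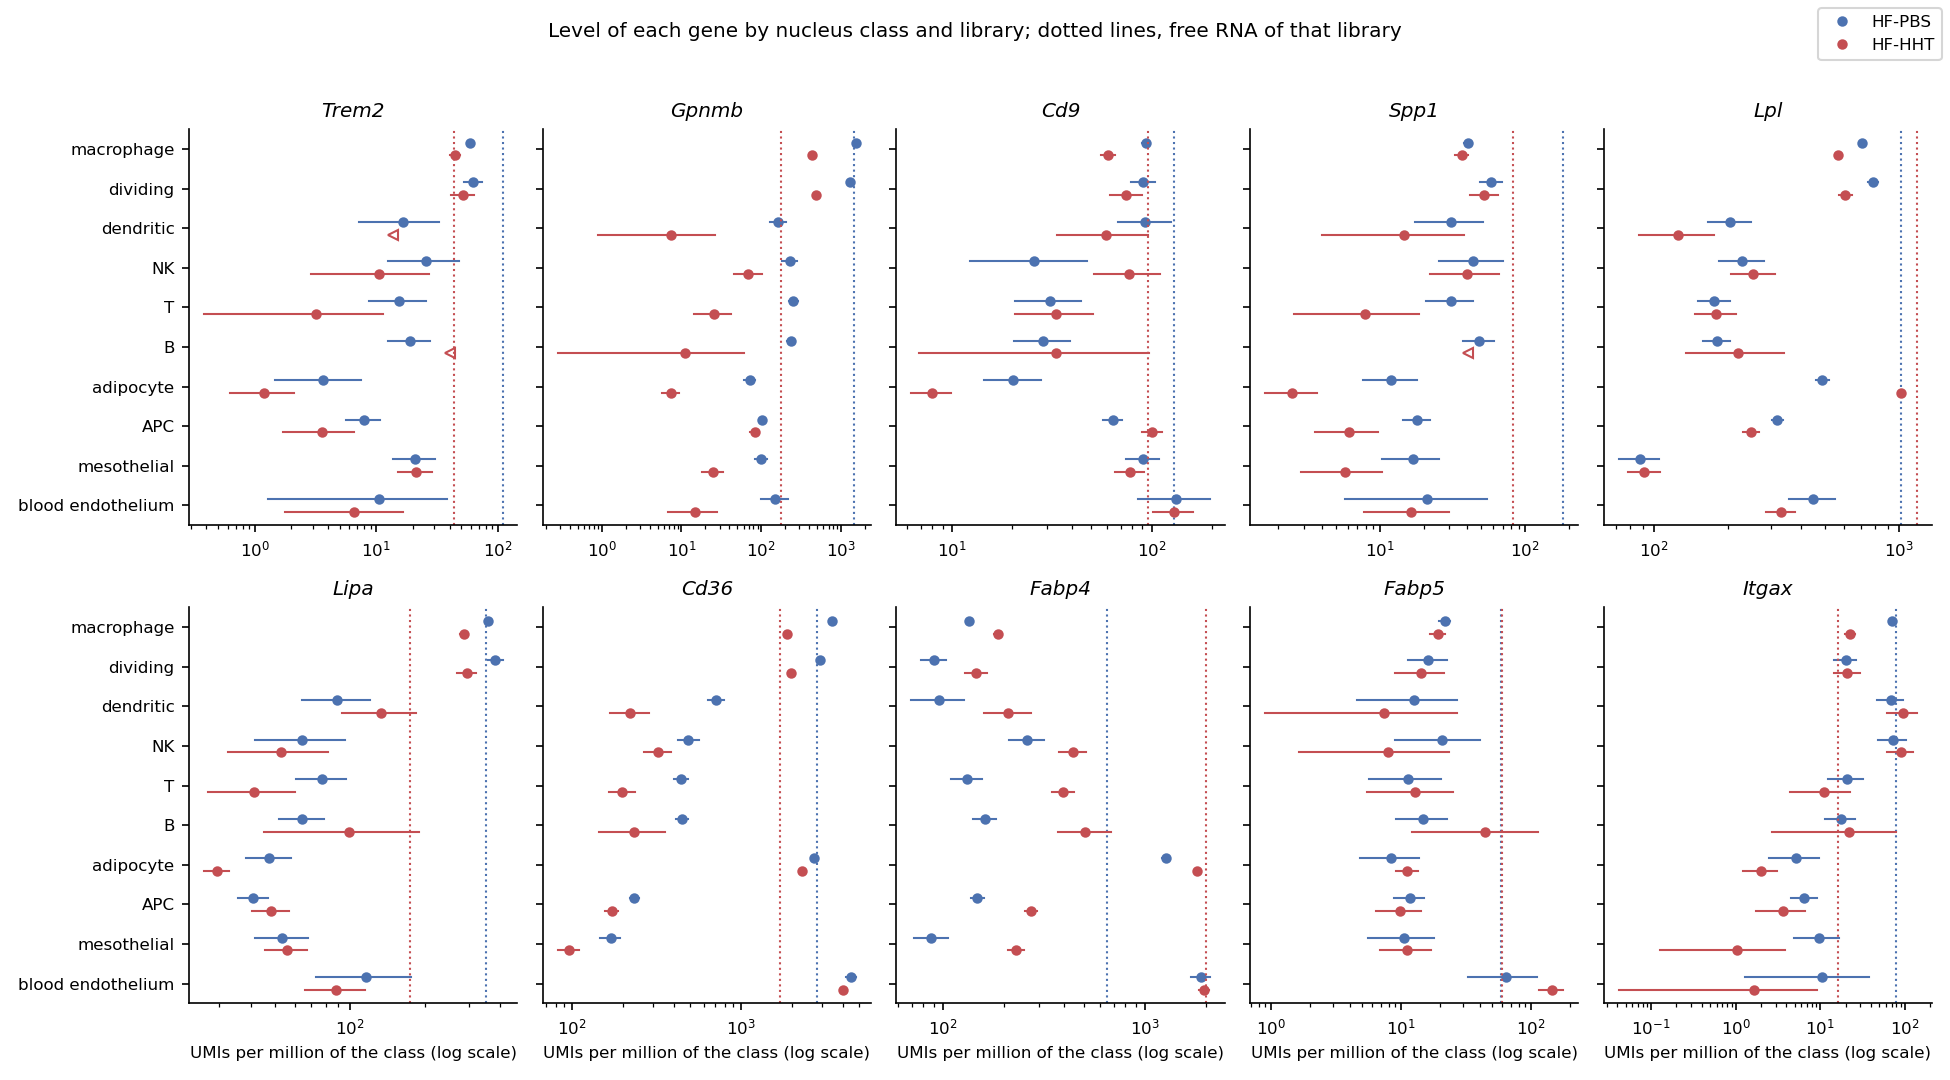
Level of each of the 10 genes in 10 nucleus classes (rows), in CPM on a log scale, for HF-PBS (blue) and HF-HHT (red), with 95% counting intervals; open triangles mark the upper bound where no UMI was found, and dotted lines mark the free RNA of the library. Among these 10 classes Trem2, Gpnmb and Lipa are highest in macrophages and dividing cells, whereas Cd36 and Fabp4 are highest in blood endothelium in both libraries.

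Trem2 encodes the receptor itself (chr17:48346401-48354147, GRCm38). Its level was 58.9 CPM (55.7 to 62.3) in HF-PBS macrophages and 44.3 CPM (40.4 to 48.5) in HF-HHT macrophages, a log2 ratio of -0.41 (-0.57 to -0.26). Dividing cells, whose second marker program was that of macrophages, stood at 62.2 and 51.2 CPM, with intervals that overlapped those of macrophages in each library. These classes held the highest levels, and the next in order, natural killer (NK) cells at 25.8 CPM in HF-PBS and mesothelial cells at 21.0 CPM in HF-HHT, had intervals below that of macrophages. A Trem2 UMI was found in 25.3% of HF-PBS macrophages and in 15.2% of HF-HHT macrophages. T cells, which should lack the gene, showed one in 3.24% and 0.64% of theirs, with medians of 1755 and 1692.5 UMIs per nucleus against 4926.5 and 4069 in macrophages. With every nucleus thinned to 1000 UMIs the shares were 5.23% and 4.08% in macrophages and 1.97% and 0.12% in T cells. Thinning left out shallower nuclei and kept 3572 of 3592 and 2168 of 2220 macrophages, and 380 of 463 and 257 of 314 T cells.

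Gpnmb, a glycoprotein of lysosomes and of lipid-laden macrophages (chr6:49036546-49070929), showed the largest difference of the 10 genes in macrophages. It stood at 1540 CPM (1523 to 1557) in HF-PBS and at 428 CPM (416 to 441) in HF-HHT macrophages, 3.60-fold lower (log2 ratio -1.85, -1.89 to -1.80). A Gpnmb UMI was seen in 65.1% of HF-PBS macrophages and 23.3% of HF-HHT macrophages, and after thinning in 36.9% and 13.2%. Dividing cells followed the same course, from 1318 to 486 CPM. T cells went from 253 to 25.4 CPM and blood endothelium from 148 to 14.7 CPM. The free RNA of the library, at the upper limit of its share in each class, amounted to 81.4% of the HF-PBS T-cell level and 100% of that in blood endothelium, but 6.17% of the level in HF-PBS macrophages and 2.51% in HF-HHT macrophages. After subtraction of that estimate the macrophage log2 ratio was -1.79.

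Itgax encodes CD11c, an integrin chain that marks dendritic cells and macrophages of obese fat (chr7:128129547-128150657). Macrophages held 71.2 CPM (67.7 to 74.9) in HF-PBS and 22.6 CPM (19.9 to 25.7) in HF-HHT, 3.15-fold lower (log2 ratio -1.65, -1.86 to -1.46). Dendritic cells stood at 68.3 and 95.9 CPM and NK cells at 72.2 and 90.1 CPM, with log2 ratios of 0.49 (-0.31 to 1.27) and 0.32 (-0.45 to 1.09) whose intervals include 0. In HF-PBS the macrophage, NK and dendritic levels overlapped in their intervals. In HF-HHT the dendritic and NK levels overlapped each other and lay above the macrophage level. The share of macrophages with an Itgax UMI was 18.9% in HF-PBS and 6.44% in HF-HHT, against 3.67% and 1.91% of T cells.

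Cd9, a tetraspanin that organises membrane proteins and is found on many cell types (chr6:125460266-125494791), was 93.8 CPM (89.7 to 98.0) in HF-PBS and 60.7 CPM (56.1 to 65.6) in HF-HHT macrophages, 1.54-fold lower. In blood endothelium it was 132 and 129 CPM (log2 ratio -0.04, -0.70 to 0.67). Lymphatic endothelium reached 343 CPM in HF-HHT, the highest class level of the gene there, and 174 CPM in the 47 HF-PBS nuclei. Multiciliated epithelium followed at 195 CPM. Among classes of at least 50 nuclei, macrophages were second of 10 in HF-PBS, with an interval that overlapped those of the neighbours, whereas in HF-HHT they stood in place 8 of 14. They held 69.0% of its UMIs in HF-PBS but 33.9% in HF-HHT.

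Spp1, which encodes the secreted phosphoprotein osteopontin (chr5:104435118-104441050), was sparse and differed little within macrophages, at 40.5 CPM (37.9 to 43.3) and 36.7 CPM (33.1 to 40.5). Its log2 ratio was -0.14, with an interval of -0.32 to 0.03 that includes 0. In HF-PBS the intervals of dividing, B, NK, macrophage, dendritic and T cells overlapped from neighbour to neighbour. The gene had a UMI in 12.6% of HF-PBS macrophages, 7.96% of B cells and 6.05% of T cells, and its level in free RNA, 183 CPM, was above that of every class of at least 50 nuclei. In HF-HHT the duct-like epithelium stood at 41.4 CPM beside 36.7 CPM in macrophages and held 17.1% of the gene's UMIs.

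Lipa encodes lysosomal acid lipase, which frees fatty acids and cholesterol from ingested lipid (chr19:34492318-34527474). It was 357 CPM (349 to 365) in HF-PBS macrophages and 286 CPM (276 to 296) in HF-HHT macrophages (log2 ratio -0.32, -0.38 to -0.26). Dividing cells stood at 383 and 294 CPM. The next class was blood endothelium at 117 CPM in HF-PBS and dendritic cells at 133 CPM in HF-HHT, both with intervals below those of macrophages. Adipocytes were low, at 47.5 and 29.3 CPM.

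Lpl encodes lipoprotein lipase, which frees fatty acids from circulating triglyceride (chr8:68880491-68907448). Its level in adipocytes was 488 CPM (457 to 520) in HF-PBS against 1026 CPM (1006 to 1046) in HF-HHT, 2.10-fold higher (log2 ratio 1.07, 0.98 to 1.17). In macrophages it was 707 CPM (696 to 718) and 566 CPM (551 to 580), a log2 ratio of -0.32. Macrophages therefore stood above adipocytes in HF-PBS and below them in HF-HHT. Over all kept nuclei the level was 569 CPM in HF-PBS against 567 CPM in HF-HHT. In HF-PBS macrophages held 74.2% of the Lpl UMIs and adipocytes 4.57%, whereas in HF-HHT they held 31.3% and 53.4%.

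Cd36, the fatty acid translocase and scavenger receptor (chr5:17781690-17888801), was highest in blood endothelium, at 4477 CPM (4180 to 4790) in HF-PBS against 3982 CPM (3825 to 4143) in HF-HHT. Adipocytes had 2679 and 2285 CPM. Macrophages had 3453 CPM (3428 to 3478) and 1865 CPM (1839 to 1891), 1.85-fold lower in HF-HHT (log2 ratio -0.89, -0.91 to -0.87), beside log2 ratios of -0.23 in adipocytes and -0.17 in endothelium. Among classes of at least 50 nuclei, the macrophage class was second in HF-PBS, whereas in HF-HHT endothelium, adipocytes and dividing cells stood above it. Perivascular cells, with only 27 nuclei in HF-HHT, had 2584 CPM there. APCs were low, at 234 and 171 CPM.

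Fabp4, the fatty acid carrier also called aP2 (chr3:10204088-10208576), was highest in blood endothelium, at 1892 CPM (1700 to 2098) and 1954 CPM (1845 to 2068). Adipocytes had 1273 CPM (1223 to 1324) in HF-PBS against 1814 CPM (1788 to 1841) in HF-HHT (log2 ratio 0.51, 0.45 to 0.57). Macrophages had 135 CPM and 186 CPM, a log2 ratio of 0.47 (0.39 to 0.55). Free RNA was estimated to supply up to 31.8% of the macrophage level in HF-PBS and 65.2% of that in HF-HHT, and after its subtraction the macrophage log2 ratio was -0.50. T cells had 132 CPM, with an interval that overlapped that of macrophages, and 395 CPM, above the macrophage level of HF-HHT. A Fabp4 UMI was found in 44.1% and 52.7% of macrophages and in 23.3% and 53.5% of T cells, so that the macrophage share of HF-HHT was no higher than that background.

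Fabp5, the epidermal fatty acid carrier (chr3:10012548-10016607), was low. Macrophages had 21.5 CPM (19.6 to 23.6) and 19.0 CPM (16.5 to 21.9), with a log2 ratio of -0.18 (-0.42 to 0.07). Blood endothelium had 63.6 CPM (32.9 to 111) from 12 UMIs in HF-PBS and 144 CPM (115 to 177) from 88 UMIs in HF-HHT, 2.26-fold higher (log2 ratio 1.17, 0.30 to 2.18), and was the highest class in both libraries. For Fabp4 the same endothelium gave a log2 ratio of 0.05 (-0.12 to 0.22).

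**Figure D2:**
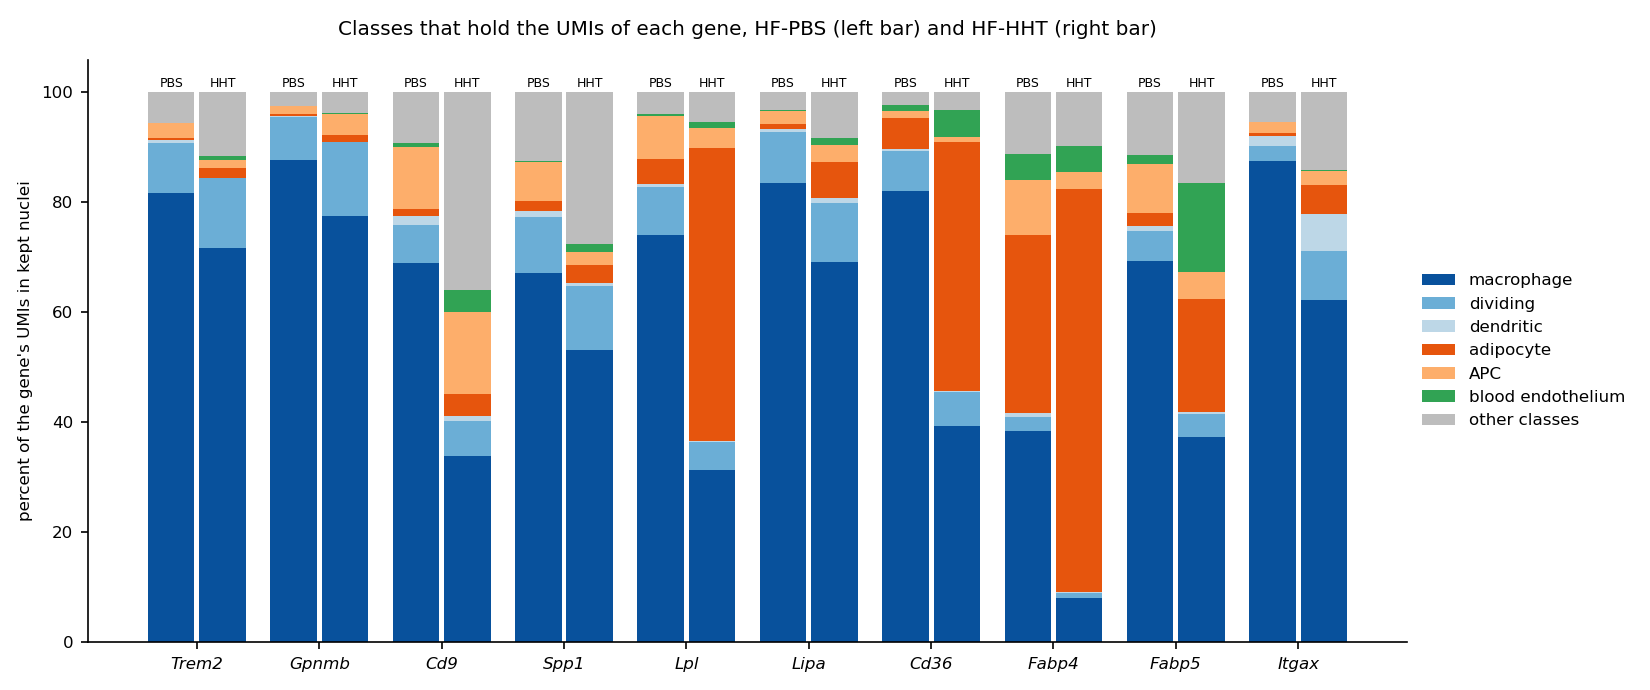
Percent of each gene's UMIs in kept nuclei that lie in each class (colours), with HF-PBS as the left bar and HF-HHT as the right bar of each gene. Macrophages held 87.7% of the Gpnmb UMIs of HF-PBS and 77.5% of those of HF-HHT, while the adipocyte share of Fabp4 went from 32.4% to 73.2% and that of Cd36 from 5.69% to 45.2%.

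The classes were next compared as wholes. A gene was counted as higher or lower where it had at least 20 UMIs over both libraries in the class and differed at least 1.5-fold. In macrophages 0 of the 10 genes were higher in HF-HHT, where 25.7% of the 14353 measured genes were, and 4 were lower, Gpnmb, Itgax, Cd36 and Cd9, where 8.33% of measured genes were. The median log2 ratio of the 10 genes was -0.37, beside 0.16 for all measured genes. In adipocytes 1 of 9 measured genes was higher, Lpl (35.4% of all measured genes), and 5 were lower, Gpnmb, Cd9, Spp1, Lipa and Itgax (12.2%). Of those 5, only Cd9 kept at least 20 UMIs and a 1.5-fold difference once estimated free RNA was subtracted, and macrophage markers in adipocyte nuclei went from 1527 to 187 CPM over the same comparison, with all 10 of them detected in both libraries. The part of these macrophage transcripts in the adipocyte result was not tested.

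In APCs 2 of 10 genes were higher (23.2% of all measured genes), Cd9, 1.57-fold from 64.1 CPM, and Fabp4 from 148 to 273 CPM. Under the scaling by trimmed means the Cd9 ratio of APCs was below 1.5-fold, and after subtraction of free RNA that of Fabp4 was too, at a log2 ratio of 0.54. In APCs 3 genes were lower, Trem2, Spp1 and Itgax (7.81%), all under 20 CPM in both libraries. Subtraction of free RNA left too few UMIs for a ratio of any of them, so it could not show if they stayed lower. Its estimated share in HF-PBS APCs, 11.2%, was taken from macrophage markers. In blood endothelium 1 of 7 measured genes was higher, Fabp5 (22.3%), and 1 was lower, Gpnmb (15.3%). The Gpnmb level there, 148 and 14.7 CPM, lay within the 184 and 15.2 CPM that free RNA was estimated to supply at most. The medians of all measured genes were shifted by 0.31 in adipocytes, 0.17 in APCs and 0.06 in blood endothelium on the log2 scale.

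**Figure D3:**
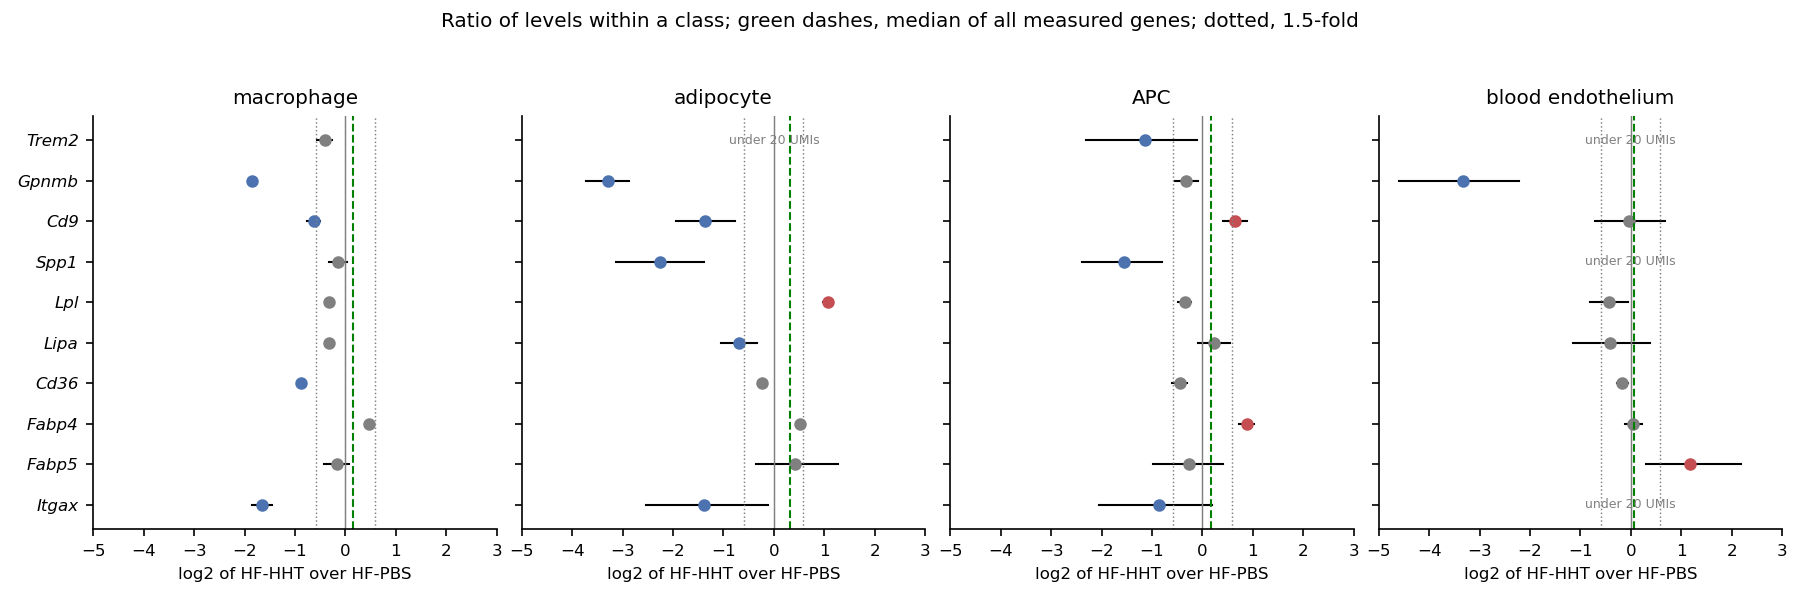
Log2 ratio of the HF-HHT level over the HF-PBS level of each gene in 4 classes, with 95% counting intervals; red points are at least 1.5-fold higher, blue points at least 1.5-fold lower, grey points lie between. In macrophages the points of Gpnmb (-1.85), Itgax (-1.65), Cd36 (-0.89) and Cd9 (-0.63) lie below the lower 1.5-fold line, and in adipocytes Lpl (1.07) lies above the upper line.

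Macrophages were then split into states by marker genes that included none of the 10. A state with the highest levels of a marker set headed by Mmp12 and Atp6v0d2 took 17.8% of HF-PBS macrophages (638 nuclei) and 10.9% of HF-HHT macrophages (243 nuclei). Its border lies on a gradient, since a cluster of 1190 and 454 nuclei, counted with the other macrophages, also had UMIs of all 7 markers. A monocyte-like state, marked by Chil3 and Ccr2, took 8.94% and 34.2%, a Lyve1 state of resident type 3.42% and 5.54%, and the other macrophages 69.9% and 49.3%. The Mmp12 state had the highest level of all 10 genes in both libraries, except that for Fabp4 in HF-PBS its interval overlapped that of another state. In HF-PBS it held 62.8% of all Gpnmb UMIs and 62.4% of all Itgax UMIs of the kept nuclei.

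Within the Mmp12 state Gpnmb was 4120 CPM (4068 to 4173) in HF-PBS against 2412 CPM (2333 to 2493) in HF-HHT, a log2 ratio of -0.77. Itgax was 189 CPM (178 to 201) and 107 CPM (90.9 to 125), a log2 ratio of -0.82 (-1.07 to -0.58). None of the other 8 genes was 1.5-fold lower in this state. Trem2 was 84.5 CPM (77.1 to 92.4) and 106.4 CPM (90.3 to 125), a log2 ratio of 0.33 (0.06 to 0.60). Lpl was 838 and 1251 CPM (0.58), Lipa 535 and 636 CPM (0.25), and Cd36 5700 and 5516 CPM (-0.05). Cd9 stood at 189 and 194 CPM (0.04, -0.15 to 0.23), a ratio that turned below 0 under the scaling by trimmed means. By the same count as before, 1 of 10 genes was higher in HF-HHT, Fabp4 (18.6% of the 10829 measured genes of the state), and 2 were lower (8.25%). The log2 ratio of Fabp4 was 0.68 there, but 0.56 under the scaling by trimmed means and 0.25 after subtraction of free RNA, both below 1.5-fold. The median of the 10 log2 ratios was 0.18, beside 0.12 for all measured genes of the state.

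Outside that state Gpnmb was lower in HF-HHT in each of the others. It went from 676 to 189 CPM in the other macrophages, from 143 to 24.6 CPM in the monocyte-like state and from 133 to 14.3 CPM in the Lyve1 state. Free RNA could supply up to 76.7% of the HF-PBS level of the monocyte-like state and 50.4% of that of the Lyve1 state, and its subtraction moved the log2 ratios from -2.54 to -1.39 and from -3.22 to -2.43. Cd36 went from 2876 to 1973 CPM, from 834 to 348 CPM and from 1901 to 1082 CPM in the same order. Cd9 and Trem2 were lower in the monocyte-like state, from 52.7 to 18.5 CPM and from 33.1 to 13.6 CPM. In the Lyve1 state both stood higher in HF-HHT, Cd9 at 7.06 and 19.5 CPM from 6 and 15 UMIs (log2 ratio 1.46, 0.01 to 3.12) and Trem2 at 15.3 and 27.2 CPM from 13 and 21 UMIs (0.83, -0.23 to 1.95). In the other macrophages their log2 ratios were -0.14 (-0.34 to 0.06) and -0.09 (-0.31 to 0.12).

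**Figure D4:**
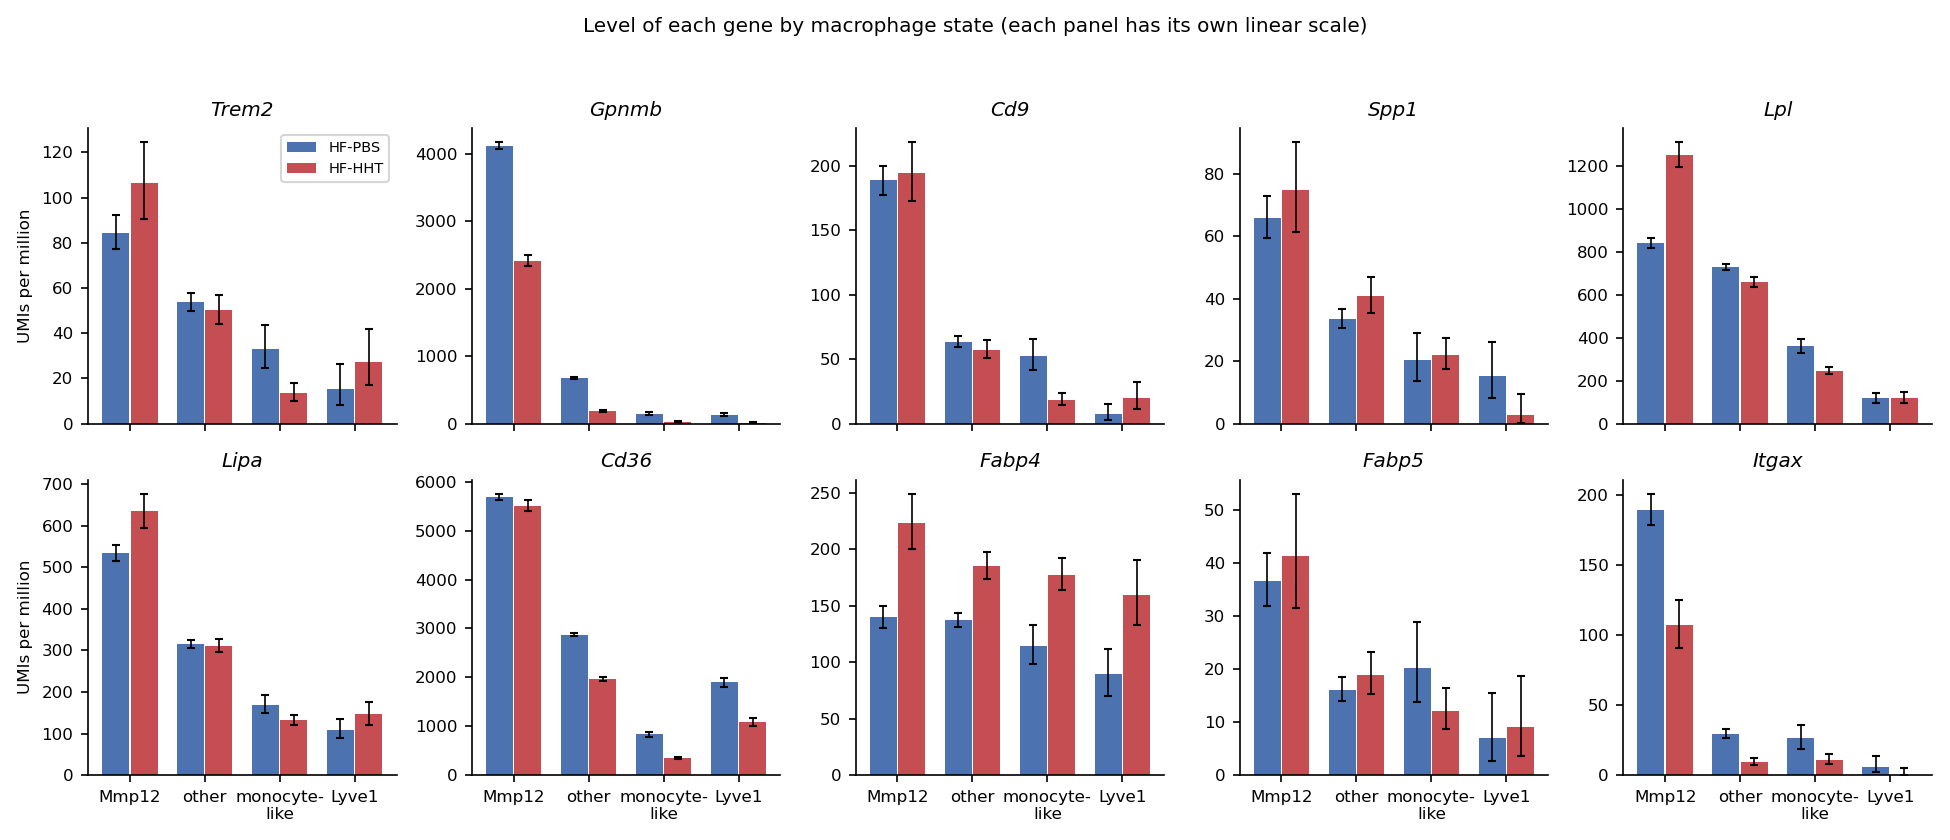
Level of each gene, in CPM on a linear scale starting at 0, in the 4 macrophage states of HF-PBS (blue) and HF-HHT (red); error bars are 95% counting intervals. The Mmp12 state is highest for each gene, and within it Gpnmb (4120 and 2412) and Itgax (189 and 107) are lower in HF-HHT while Lpl (838 and 1251) is higher.

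The HF-HHT levels of the states were also weighted by the HF-PBS shares of macrophage UMIs. For Gpnmb the log2 ratio over all macrophages was then -1.01, against -1.85 as measured, and for Itgax -1.01 against -1.65. For Cd36 it was -0.32 against -0.89. For Trem2, Cd9, Lpl and Lipa it was 0.07, -0.06, 0.12 and 0.09, against -0.41, -0.63, -0.32 and -0.32 as measured. For Spp1, Fabp5 and Fabp4 it was 0.22, 0.16 and 0.53, against -0.14, -0.18 and 0.47 as measured. At these weights the ratios of Trem2, Cd9, Lpl and Lipa lay between -0.06 and 0.12, while those of Gpnmb and Itgax kept the greater part of their size. Over all kept nuclei the difference in Fabp4 was 1.80 on the log2 scale and 0.66 at the HF-PBS mix of classes. States are clusters of the same nuclei, so the weighting describes the libraries and is no test, and the mix of nuclei within a state cannot be told apart from their levels.

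Single macrophages were also grouped by their own Gpnmb level, with Gpnmb left out of the totals. In HF-PBS, 1255 macrophages had no Gpnmb UMI and 369 had more than 4000 CPM, while in HF-HHT the numbers were 1702 and 58. From the lowest to the highest group of HF-PBS, Cd36 went from 1888 to 5716 CPM, Lipa from 208 to 585 CPM, Cd9 from 57.5 to 175 CPM and Itgax from 24.8 to 184 CPM. In HF-HHT Cd36, Lipa and Cd9 went from 1240 to 5464 CPM, from 207 to 722 CPM and from 40.7 to 211 CPM, and Itgax reached 138 CPM in the highest group. Lpl reached its highest level in the group between 1000 and 4000 CPM in both libraries, at 905 and 1092 CPM. Fabp4 differed least over the groups, from 121 to 163 CPM in HF-PBS. The groups differed in depth, with medians of 4055 UMIs in the lowest and 7740 UMIs in the highest group of HF-PBS, and the part of depth in these gradients was not tested.

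**Figure D5:**
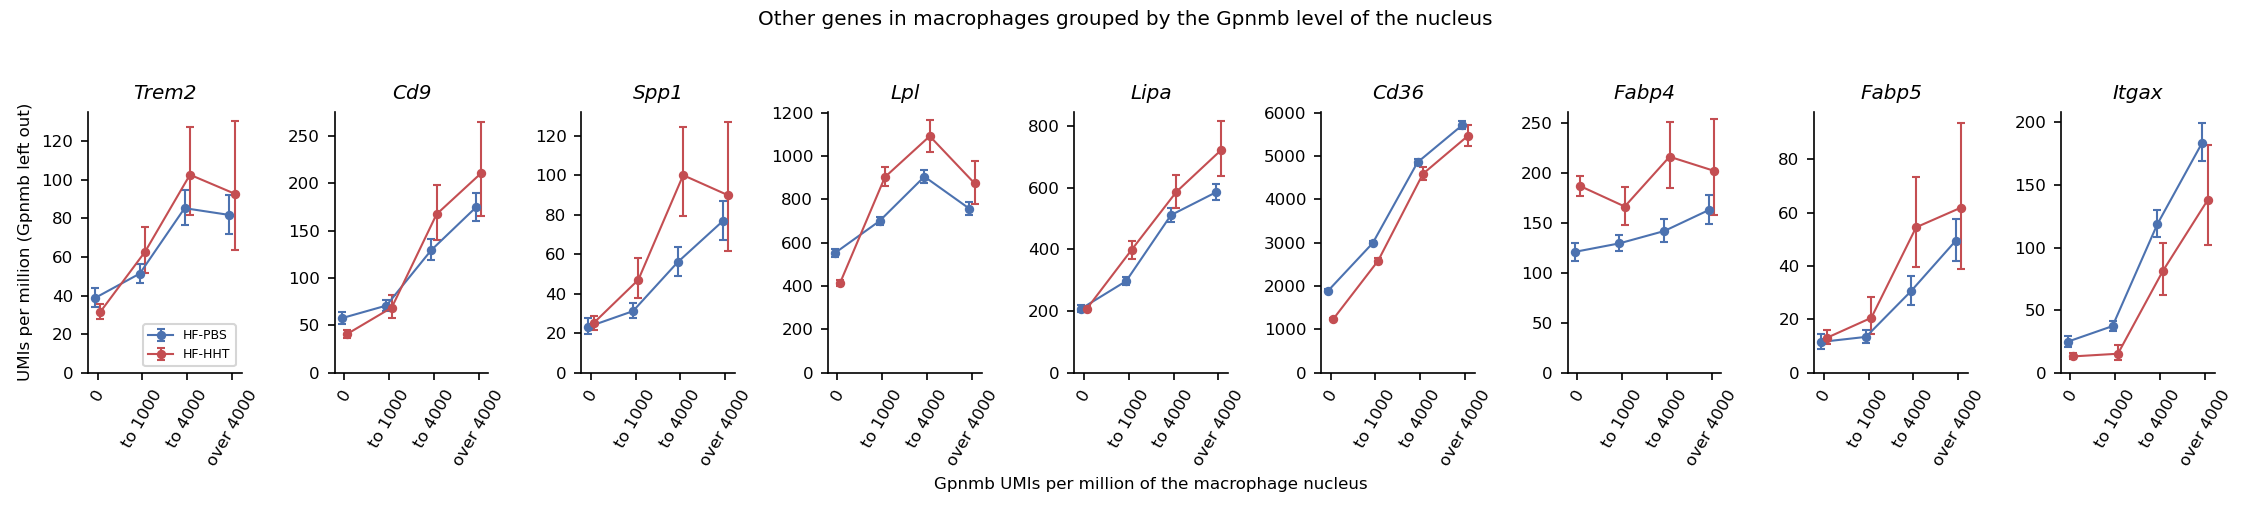
Level of the other 9 genes, in CPM without Gpnmb, in macrophage nuclei grouped by their Gpnmb level (0, above 0 to 1000, above 1000 to 4000, above 4000 CPM) in HF-PBS (blue) and HF-HHT (red); bars are 95% counting intervals. Cd36 goes from 1888 to 5716 in HF-PBS and from 1240 to 5464 in HF-HHT, while Fabp4 stays between 121 and 163 in HF-PBS.

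Genes with the most similar pattern were sought by the Pearson correlation of log2(CPM + 1) over 24 sums of class and library, among 11962 genes. These sums share their libraries and their free RNA, so the coefficients are descriptions. Trem2 was closest to Gpnmb (0.87), C5ar1 (0.86), the receptor for complement C5a, and Arg1 (0.84), arginase. Gpnmb was closest to Atp6v0d2 (0.91), a subunit of the proton pump, F13a1 (0.88), a coagulation factor chain that is also a macrophage marker here, and Trem2. Lpl and Cd36 were closest to each other (0.87), followed for Lpl by Adap2 (0.84) and Cmpk1 (0.82), a nucleotide kinase, and for Cd36 by Kctd12b (0.85) and Pparg (0.84), the master regulator of fat cells. Lipa was closest to the chemokine gene Ccl9 (0.94), Cd300lb (0.92) and the chemokine gene Ccl6 (0.91). Fabp4 was closest to Tmem182 (0.91), Aqp7 (0.89), the glycerol channel of adipocytes, and the natriuretic peptide receptor gene Npr3 (0.89). Itgax was closest to Plcb2 (0.91) and Cbl (0.90), genes of signalling in blood cells. Coefficients were lower for Spp1, with Tgif1 (0.81), Fuca2 (0.80) and Map1s (0.79), for Cd9, with Pxn (0.80), Arrdc4 (0.76) and Stx3 (0.75), and for Fabp5, with Pcdh17 (0.80), Ercc1 (0.77) and Rnf220 (0.76).

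Lists of partner genes were examined in macrophages. Of 13 TREM2 signalling genes, 4 were at least 1.5-fold higher in HF-HHT and 0 were lower, with a median log2 ratio of 0.17 beside 0.16 for all measured genes, of which 25.7% were higher and 8.33% lower. The highest was Tyrobp, the signalling adaptor of TREM2, at 33.9 and 85.5 CPM (log2 ratio 1.34, 1.19 to 1.48), beside 47.5 and 93.1 CPM in free RNA. The lowest was the adaptor gene Lat2, at 89.9 and 60.7 CPM (-0.57). Trem2 itself, at -0.41, did not pass 1.5-fold. Of 20 further genes of lipid-associated macrophages, 2 passed 1.5-fold upward and 7 downward, and the median was -0.19. The list holds all 7 markers of the Mmp12 state, and several of the lower genes are among them. Its counts are therefore not separate from the share of that state. The lowest was Mmp12, macrophage elastase, which also marks the state above, at 612 and 145 CPM (-2.08), and the highest was Lgals1, galectin 1, at 22.7 and 39.2 CPM (0.79) beside 87.1 and 163 CPM in free RNA.

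The following lists stand beside the same macrophage background of 25.7% of measured genes higher and 8.33% lower. Of 15 genes of cholesterol handling 2 were higher and 2 lower, and the list median was 0.04. Lipe, hormone-sensitive lipase, was highest at 22.2 and 47.7 CPM (1.10), beside 84.7 and 314 CPM in free RNA, and Stard4, a sterol carrier, was lowest at 6.95 and 4.05 CPM (-0.78). Among 9 genes of the MiT/TFE transcription factors, which drive lysosomal genes, and of their regulators, 1 stood higher and 2 lower, and the median was -0.23. The genes past 1.5-fold downward were regulators. Of the factors, Mitf went from 3139 to 2399 CPM (-0.39) and Tfeb from 214 to 166 CPM (-0.36), short of 1.5-fold. Tfe3, at 37.5 and 48.7 CPM (0.38), and Tfec stood higher in HF-HHT. The list ranged from Tfec at 81.0 and 126 CPM (0.63) to Rragd, a GTPase of the lysosomal nutrient sensor, at 8.02 and 3.96 CPM (-1.02). Of 9 osteopontin receptors 2 were higher and 2 lower, and the list median was -0.10. The highest was Itga8, at 0.56 and 1.89 CPM from 12 and 20 UMIs, and the lowest Itgb3, the beta chain of the vitronectin receptor, at 6.90 and 1.89 CPM (-1.87). Of 10 genes around the beta2 integrins 2 were higher and 2 lower, and the list median was 0.02. Itgal, which encodes CD11a, another alpha chain that pairs with beta2, was 10.8 CPM in HF-PBS against 94.4 CPM in HF-HHT (3.12, 2.92 to 3.34), while Itgax went from 71.2 to 22.6 CPM. The vascular adhesion gene Vcam1 was lowest, at 90.0 and 30.6 CPM (-1.56). Of 11 tetraspanin genes and partners 3 were higher and 0 lower, and the list median was 0.14, from Tspan3 at 66.1 and 62.6 CPM (-0.08) to Cd81 at 9.56 and 25.6 CPM (1.42), beside 44.2 and 143 CPM of Cd81 in free RNA.

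In adipocytes, 1 of 9 measured partners and regulators of lipoprotein lipase was higher and 0 were lower, with a median log2 ratio of 0.21 beside 0.31 for all measured genes, of which 35.4% were higher and 12.2% lower. That gene was Vldlr, the very low density lipoprotein receptor, at 12.5 and 34.8 CPM (1.47, 0.88 to 2.14). Angptl4, an inhibitor of the lipase, was lowest at 239 and 181 CPM (-0.40, -0.55 to -0.25), while Lpl itself went from 488 to 1026 CPM. Of 8 measured fatty acid transport genes 3 were higher and 0 lower, and the list median was 0.17, from Slc27a1, a fatty acid transporter, at 1861 and 1320 CPM (-0.50) to the acyl-CoA synthetase gene Acsl4 at 32.9 and 58.2 CPM (0.82). Of 13 PPAR and C/EBP regulators 6 were higher and 2 lower, and the list median was 0.30, from Rxra, the partner of PPAR gamma, at 94.5 and 57.3 CPM (-0.72) to the coactivator gene Ppargc1a at 4.70 and 16.8 CPM (1.83).

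In blood endothelium the same lists had few measured genes, and of all measured genes, whose median was 0.06, 22.3% were higher and 15.3% lower. Of 4 measured lipase partners, with a median of 0.04, 0 were higher and 1 was lower, the sorting receptor gene Sort1 at 53.0 and 34.3 CPM (-0.63, -1.78 to 0.62), and Angptl4 was highest at 117 and 171 CPM (0.56, -0.12 to 1.29). Of 7 fatty acid transport genes 3 were higher and 0 lower, and the list median was 0.21. The highest was Tcf15, a transcription factor of fatty acid transport in capillaries, at 10.6 and 29.4 CPM from 2 and 18 UMIs (1.47, -0.59 to 4.62), and the lowest Acsl5 at 58.3 and 58.7 CPM (0.01). Of 7 PPAR and C/EBP regulators, with a median of -0.30, 0 were higher and 1 lower, Cebpd at 47.7 and 26.1 CPM (-0.87, -2.13 to 0.49), and the corepressor gene Ncor1 was highest at 583 and 835 CPM (0.52). Of the intervals of these 6 endothelial genes, only that of Ncor1 excluded 0.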

How the data were processed

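Droplet snRNA-seq of sorted nuclei from pooled eWAT gave 1 library for each of HF-PBS and HF-HHT. The deposited values are whole UMI counts per gene and barcode, without normalization, aligned to mm10; per the labels the authors used Cell Ranger 5.0.0, whereas the file headers name another major version, and the sources used here do not say if intronic reads entered. Nuclei were called with the rules of Cell Ranger, doublets were removed with Scrublet as run in scanpy 1.11.5 (480 and 463 barcodes), where the study used scDblFinder, and nuclei with more than 400 genes, below the 95th percentile of UMIs and genes and with under 0.5% mitochondrial UMIs were kept, these limits as in the study's methods. Libraries were integrated with Seurat 5.3.0 on features that exclude the 10 genes and the partner lists, clustered at resolution 1.0, and merged into classes by markers. UMIs were summed per class and library (76197757 and 73313558 UMIs in all barcodes) and scaled to CPM, with exact Poisson intervals for levels, exact binomial intervals for shares, and exact conditional intervals for ratios. A count of 0 in a library was set at 3 UMIs for a ratio. No test was possible with 1 library per group. Alternatives were trimmed-mean factors of edgeR 4.0.16, median-of-ratios factors, other filters, subtraction of estimated free RNA and coarser clusters. The code for ratios, intervals, 1.5-fold calls and thinning was tested on simulated counts, and the naming of clusters was not.

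The 10 genes, the markers and the partner lists were chosen with earlier results of these data known. Genes named in the text are the 10, the 3 most similar in pattern to each among genes with at least 200 UMIs (predicted genes left out, and 1 gene not reported here), and the highest and lowest ratio of each list.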

Additional observations from a re-analysis of the deposited data

Results flagged for a closer look

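The direction of the difference between the libraries was not the same in every class for Cd9 and for Lpl, and neither contrast between classes was tested, since there is 1 library per group. For Cd9 the log2 ratio of HF-HHT over HF-PBS was 1.58 in NK cells, from 10 and 29 UMIs, and -1.36 in adipocytes, from 39 and 79 UMIs. Among classes of at least 50 nuclei in both libraries whose interval excluded 0, APCs and NK cells were at least 1.5-fold higher and adipocytes and macrophages at least 1.5-fold lower. For Lpl it was 1.07 in adipocytes, from 934 and 10222 UMIs, and -0.71 in dendritic cells, from 99 and 34 UMIs.

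A signal outside the nuclei was seen for Fabp4, whose log2 ratio in free RNA was 1.63, from 652 to 2016 CPM. The summed adipocyte markers of free RNA went from 2304 to 8514 CPM over the same libraries.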

How the results depend on the processing

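No paired analysis was possible because each group is 1 library, and for the same reason no replicate could be left out. Of 372 values of the 44 ratios past 1.5-fold under an alternative, 366 kept their direction and 358 stayed past 1.5-fold. The 6 that reversed were Itgax in T cells, at a log2 ratio of 0.20 with 14 clusters, where T and NK cells merge, and, after subtraction of estimated free RNA, Fabp4 in mesothelial cells (-3.41), dividing cells (-0.035) and lymphatic endothelium (-1.34) and Gpnmb (1.36) and Cd36 (0.23) in NK cells.

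The counts of genes in macrophages moved by no more than 1.5 times under any alternative. With free RNA subtracted the counts higher and lower were 2 and 1 in adipocytes and 4 (Gpnmb, Cd9, Lipa and Cd36, without Fabp4) and 0 in APCs, and 0 were lower in blood endothelium. The share subtracted from HF-PBS APCs, 11.2%, was itself taken from macrophage markers. It covered all of the 103 CPM of Gpnmb and of the 234 CPM of Cd36 there, so no HF-PBS level of those genes was left to compare. For Lipa it left little of the 41.0 CPM in HF-PBS, and the log2 ratio became 4.34. Before subtraction the APC log2 ratios of Gpnmb, Lipa and Cd36 were -0.32, 0.23 and -0.45, all within 1.5-fold. With no upper limits on UMIs and genes, which kept 296 and 1176 adipocytes in place of 150 and 844, 2 genes were higher in adipocytes. With either set of scaling factors 1 gene was higher in APCs, and with doublets kept 5 were lower there. In blood endothelium 3 genes were lower with no minimum of UMIs and 2 were higher with 14 clusters, where blood and lymphatic endothelium merge. The cause of the other changes was not tested. The share of all measured genes past 1.5-fold is not given for the alternatives. These counts therefore cannot be set against the genes as a whole.

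Depth limits Trem2, Cd9, Spp1, Fabp5 and Itgax, which had under 100 CPM in macrophages, and every value of the 51 endothelial nuclei of HF-PBS.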
